A study of Bos taurus with 27 samples.

Results

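The 35 genes described here are expressed by B cells or belong to the germinal centre reaction, and they were chosen by name, with earlier results of these data known. No measured value entered the rule. All 35 had a probe on the array, through 58 probes of the 45220 measured, and they are 35 of 14495 named genes. GCSAM was found under an older symbol, and EBF1 had the most probes, 5. The genes were grouped into 6 roles: 7 genes of the antigen receptor and its signalling, 7 surface proteins and co-receptors, 3 survival and homing receptors, 5 B cell transcription factors, 10 germinal centre genes and 3 genes of T cell help.

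RNA came from biopsies of the superficial cervical lymph node of Bonsmara, Brahman and Holstein-Friesian cattle. Holstein-Friesian is a taurine dairy breed, Brahman a zebu breed, and Bonsmara a South African composite breed. Each breed was sampled at 3 stages, a baseline without attached ticks, a stage with attached larvae and a stage with attached adult ticks, per the labels of Rhipicephalus microplus, with 3 arrays for each breed and stage. In each breed the description of adult replicate 2 also names larvae, while its title and characteristics say adult. These 3 arrays were kept as adult arrays, and every fit was repeated without them. Each array compared 1 sample, in the red dye, with a pool of cattle superficial cervical lymph nodes in the green dye. Replicates are biological per the labels, which give no age and leave unstated if the same animals were sampled at several stages. All later arrays came from tick-infested cattle, so time and tick feeding cannot be told apart in any stage comparison, and the larva and adult comparisons share their baseline arrays.

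B cells enter the follicles of a lymph node, recognise antigen through a surface receptor that signals through the CD79 chains and kinases such as BTK, and receive survival signals through receptors of the TNF family. After contact with helper T cells, through CD40 and the cytokine IL-21, some B cells form germinal centres, where they divide rapidly, mutate their antibody genes and are selected. The transcription factor BCL6 holds this programme in place, and cells leave it as memory B cells or antibody-secreting plasma cells. Most of these roles are known from human and mouse. Several of the genes are also expressed outside B cells, such as CR2 on follicular dendritic cells, BTK in myeloid cells, EBF1 in stroma, LMO2 in endothelium, MME in stroma and granulocytes, and IL21 in helper T cells.

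Values are deposited log2 ratios, likely of sample over pool. The file states neither the base nor the direction. A group difference of 1 would be a 2-fold change on that reading, and with the opposite direction every sign in the text would turn. Differences carry the standard error (SE) of a limma fit with all 27 arrays. A gene was called where its p-value, adjusted by Benjamini-Hochberg over 28927 features, was under 0.05. The number of arrays limits the precision, and signal over background is unknown because no intensities were used. In whole tissue, fewer cells of a type and less RNA per cell cannot be told apart. Because each value is a ratio to the pool, levels of different genes cannot be ranked against each other, and no value marks absence.

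Arrays differed in how far they correlated with their group over all features. Replicate 3 of the Holstein-Friesian larva group, as labelled, correlated at -0.085 on average with its group, and the lowest such mean elsewhere was 0.085, in Holstein-Friesian baseline replicate 2. Every fit was also run without Holstein-Friesian larva replicate 3 and the array labelled Bonsmara larva replicate 3, both set apart in earlier results of these data. The latter did not stand apart by its mean correlation of 0.186, since Bonsmara larva replicate 2 was at 0.177. Of the 6 defining B cell markers 3 were measured, MS4A1, CD79A and PAX5, and all are among the 35 genes. Since the pool is itself lymph node, these ratios cannot show how much B cell RNA a sample held.

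**Figure D1:**
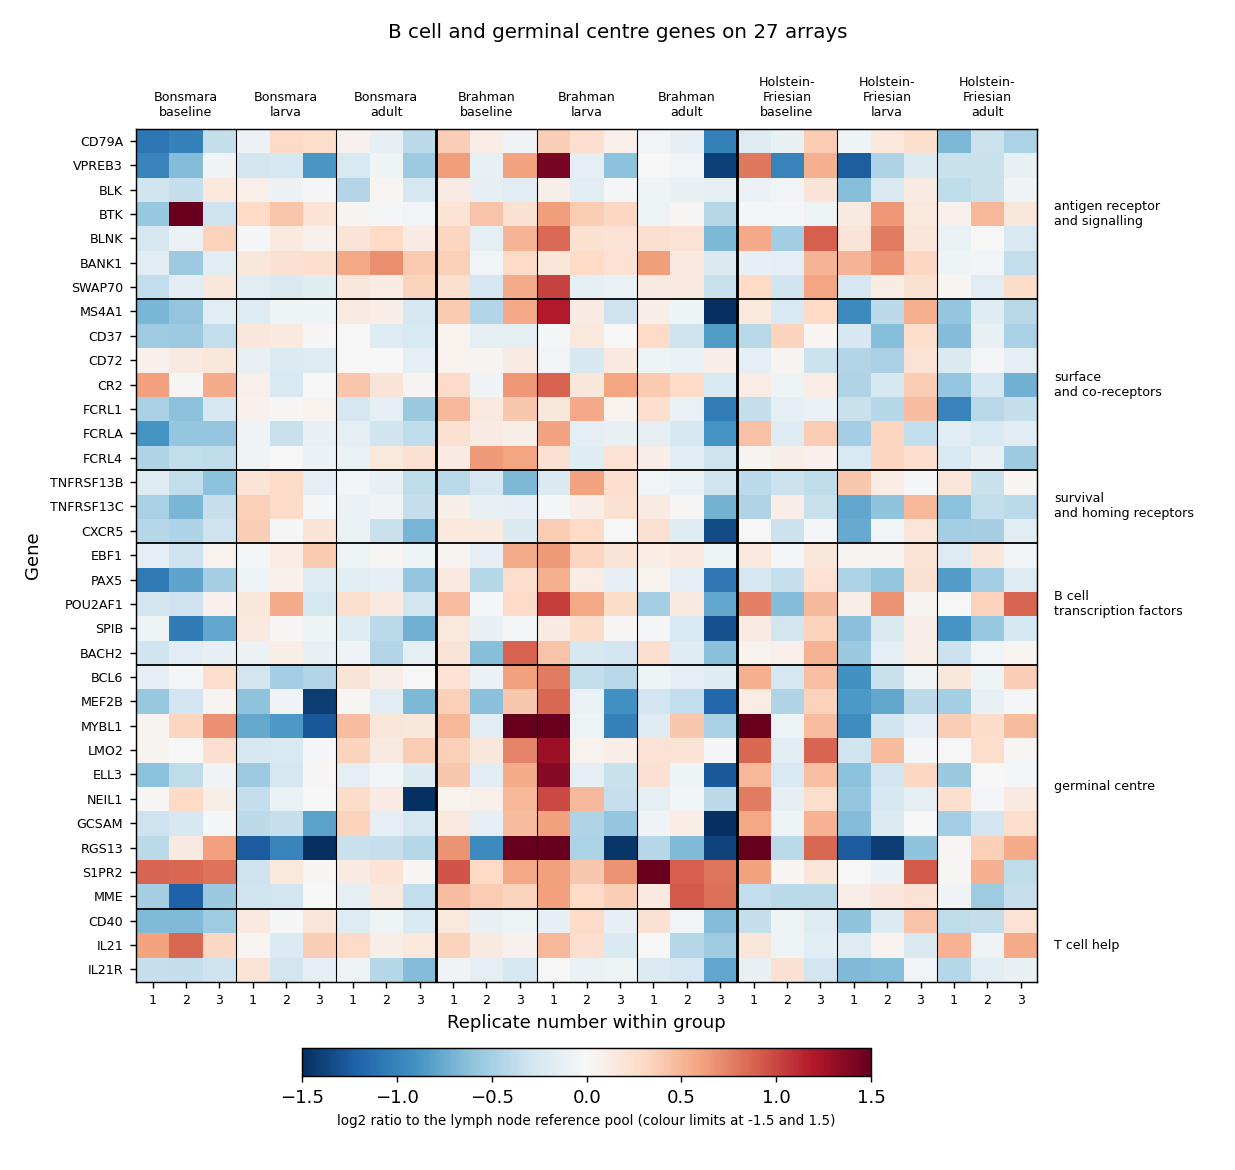
Log2 ratio of each gene to the reference pool on each of the 27 arrays. Rows are genes grouped by role, columns are replicates grouped by breed and stage, and colours saturate at -1.5 and 1.5. RGS13 and MYBL1 have the highest SD over the arrays (1.11 and 0.75), and Brahman adult replicate 3 is low and Brahman larva replicate 1 high over most rows.

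The 35 genes differed much in how far they varied. RGS13, a regulator of G protein signalling enriched in germinal centre B cells, ranged from -1.97 to 2.60 over the 27 arrays, and its SD of 1.11 was above that of 99.9% of features. MYBL1, a transcription factor of germinal centre cells, ranged from -1.27 to 1.76 (SD 0.75, above 99.0% of features), and VPREB3, which binds immunoglobulin chains during their assembly, from -1.40 to 1.42 (SD 0.63). At the other end, CD72, an inhibitory co-receptor, had an SD of 0.18 and BLK, a kinase of the receptor, one of 0.20. Within groups the median SD of RGS13 was 0.50, above that of 99.6% of features. Its SD was 2.12 in Brahman larva, 1.44 in Brahman baseline and 1.14 in Holstein-Friesian baseline arrays, and its group means ran from -1.41 to 0.78.

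Some arrays were the lowest or the highest of their group in most of the genes. Brahman adult replicate 3 was the lowest of its group in 33 of 35 genes, with a median over the genes of -0.65, against 39.6% of all features for which it was lowest. On that array MS4A1 stood at -1.58, CXCR5 at -1.34, SPIB at -1.31 and GCSAM at -2.14. Brahman larva replicate 1 was the highest of its group in 26 genes, against 33.2% of features, with a median of 0.61, and RGS13 reached 2.60 and MYBL1 1.76 there. Holstein-Friesian larva replicate 3 was the highest of its group in 26 genes, against 37.3% of features, and Bonsmara adult replicate 3 the lowest in 29, against 35.4%. A few values stood alone, such as BTK at 1.55 in Bonsmara baseline replicate 2, where the other arrays of the group were at -0.57 and -0.31, and NEIL1 at -2.07 in Bonsmara adult replicate 3, where the others were at 0.28 and 0.13.

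Markers of other cell types moved with these arrays. In Brahman adult replicate 3 the mean of 7 endothelial markers was 1.27 (-0.17 and 0.31 in the other arrays of the group), that of 10 macrophage markers was 0.84 (-0.23 and 0.00), and that of 5 cell cycle markers was -0.94 (-0.15 and -0.35). In Brahman larva replicate 1 the cell cycle mean was 0.86 (0.13 and 0.01) and the mean of the 10 germinal centre genes 1.15 (-0.04 and -0.39). Their part in the results was not tested.

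**Figure D2:**
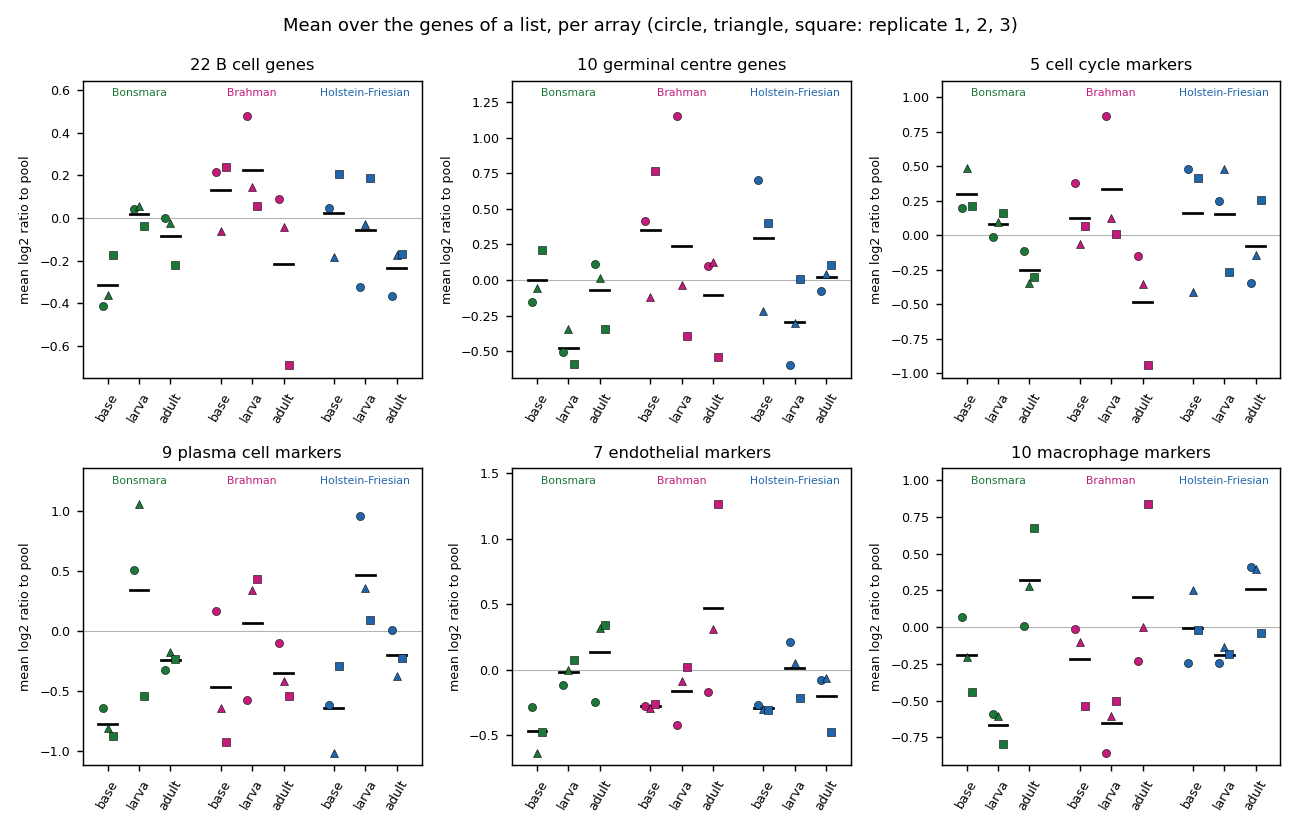
Mean log2 ratio to the pool over the genes of a list, for each array, by breed and stage. Points are arrays with a symbol per replicate number, and lines are means of 3. The 10 germinal centre genes lie between -0.59 and -0.35 in Bonsmara larva arrays, and the plasma cell markers run from -1.01 to 0.17 at baseline and from -0.58 to 1.06 with larvae.

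The first question of the design is how the node differed between feeding larvae and baseline. As the mean over breeds, 1 of the 35 genes was called, and it was higher with larvae. This was TNFRSF13B, which encodes TACI, a receptor on mature B cells and plasma cells for the survival factors BAFF and APRIL. Over all features, 1.21% were called in this comparison. The germinal centre genes lay on the other side, 9 of 10 with negative differences and 0 called, while 16 of the 22 genes of the 4 B cell roles (receptor, surface, survival and transcription factors) were positive.

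TNFRSF13B was at -0.20, -0.37 and -0.62 on the Bonsmara baseline arrays and at 0.20, 0.29 and -0.14 on the larva arrays. In Brahman it was at -0.41, -0.25 and -0.68 at baseline and at -0.21, 0.60 and 0.25 with larvae. Holstein-Friesian arrays were at -0.39, -0.32 and -0.38 at baseline and at 0.41, 0.11 and -0.03 with larvae. In each breed the lowest larva array lay above the highest baseline array. The mean difference over breeds was 0.57 (SE 0.11, limma adjusted p = 0.00699), and leaving out any 1 of the 18 arrays compared left it between 0.50 and 0.64, called each time. The differences within breeds, 0.51 in Bonsmara, 0.66 in Brahman and 0.53 in Holstein-Friesian, were not called on their own (limma adjusted p = 0.170, 0.318 and 0.726). On the adult arrays it was at -0.04, -0.11 and -0.38 in Bonsmara, at -0.04, -0.10 and -0.30 in Brahman and at 0.18, -0.34 and 0.03 in Holstein-Friesian. The adult mean thus lay between the means of the other stages in each breed, with an adult minus baseline difference of 0.28 (SE 0.11, limma adjusted p = 0.322). This gene rests on 1 probe.

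Plasma cell markers moved with TNFRSF13B. Of 9 measured, 5 were called higher with larvae and 9 were positive, with a median difference of 0.92 against -0.02 over all features. Their mean per array ran from -1.01 to 0.17 at baseline and from -0.58 to 1.06 with larvae. JCHAIN, which joins secreted antibody into polymers, had a difference of 1.56 (SE 0.38). Whether the plasma cell signal had a part in the TNFRSF13B difference was not tested. The other survival and homing receptors were also positive, at 0.27 for TNFRSF13C, the BAFF receptor, and 0.23 for CXCR5, but were not called.

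CXCR5, the chemokine receptor that brings B cells into follicles, was at -0.43, -0.46 and -0.31 on Bonsmara baseline arrays and at 0.37, -0.03 and 0.21 with larvae. In Brahman it was at 0.16, 0.15 and -0.21 at baseline and at 0.38, 0.30 and 0.01 with larvae. In Holstein-Friesian it was at 0.00, -0.32 and -0.03 at baseline and at -0.76, -0.04 and 0.19 with larvae. The stages did not overlap in Bonsmara and overlapped in the other breeds. On adult arrays CXCR5 stood at -0.10, -0.34 and -0.70 in Bonsmara, at 0.22, -0.18 and -1.34 in Brahman and at -0.50, -0.50 and -0.16 in Holstein-Friesian.

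Among the 10 germinal centre genes, the median difference between larva and baseline over breeds was -0.35, against -0.02 over all features. The largest differences were those of RGS13, at -1.23 (SE 0.43, limma adjusted p = 0.195), MYBL1, at -0.94 (SE 0.29, limma adjusted p = 0.130), and BCL6, at -0.46 (SE 0.15, limma adjusted p = 0.175). The exception in sign was MME, the surface peptidase CD10, at 0.39 (SE 0.11, limma adjusted p = 0.0944). The 3 probes of RGS13 gave -1.11, -1.42 and -1.18, and the 3 probes of BCL6 gave -0.40, -0.52 and -0.46, so the probes of each gene had the same sign.

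BCL6, the master regulator of the germinal centre, was at -0.12, -0.01 and 0.26 on Bonsmara baseline arrays and at -0.28, -0.51 and -0.44 with larvae. In Brahman it was at 0.22, -0.09 and 0.62 at baseline and at 0.77, -0.37 and -0.42 with larvae. In Holstein-Friesian it was at 0.53, -0.26 and 0.46 at baseline and at -0.90, -0.33 and -0.06 with larvae. The stages were apart in Bonsmara and overlapped in the other breeds, in Brahman through replicate 1 with larvae. Adult arrays were at 0.20, 0.08 and 0.00 in Bonsmara, at -0.06, -0.12 and -0.18 in Brahman and at 0.17, -0.08 and 0.37 in Holstein-Friesian.

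RGS13 varied on a larger scale. It was at -0.40, 0.13 and 0.61 at baseline and at -1.25, -1.00 and -1.97 with larvae in Bonsmara, and at 1.88, -0.40 and 0.86 at baseline and at -1.25, -1.41 and -0.60 with larvae in Holstein-Friesian. Brahman arrays were at 0.67, -0.95 and 1.92 at baseline and at 2.60, -0.47 and -1.45 with larvae. The stages did not overlap in Bonsmara and Holstein-Friesian, and they overlapped widely in Brahman. Brahman larva replicate 1 decided the calls: without it, BCL6 (-0.59, limma adjusted p = 0.0183), MYBL1 (-1.19, limma adjusted p = 0.00865) and RGS13 (-1.63, limma adjusted p = 0.0123) were all called lower, which made 4 genes of the 35 with TNFRSF13B, where 1.55% of features were called. This array had the highest cell cycle mean of all 27, and its part in these genes was not tested.

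**Figure D3:**
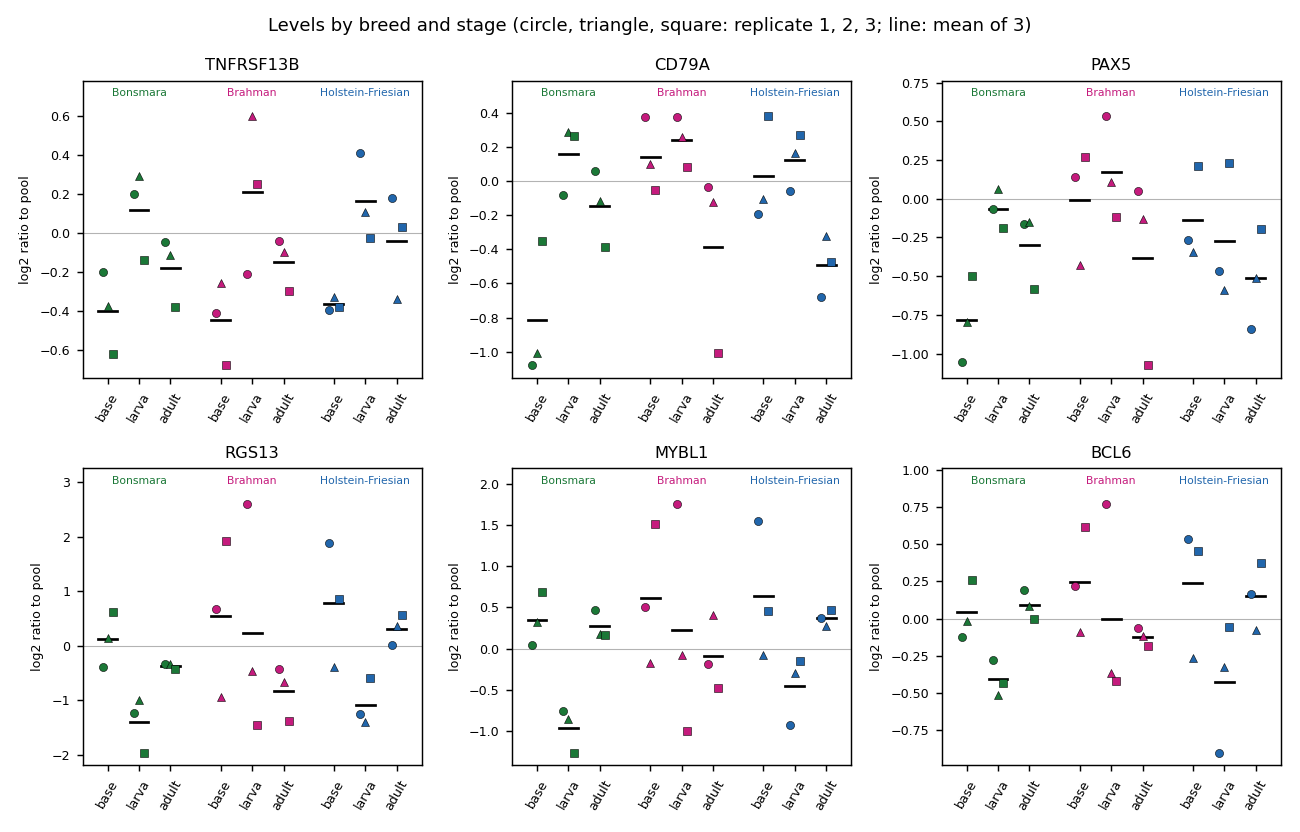
Log2 ratio to the pool of 6 genes on each array, by breed and stage. Points are arrays with a symbol per replicate number, and lines are means of 3. TNFRSF13B is higher with larvae in each breed, and RGS13, MYBL1 and BCL6 are below 0 on all larva arrays except Brahman larva replicate 1.

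At an unadjusted p under 0.05, limma gave 9 of the 35 genes in this comparison (25.7%), against 12.5% of all features. They were CD79A, BANK1, TNFRSF13B, MME and CD40 with positive differences and BCL6, MYBL1, RGS13 and S1PR2 with negative ones. In all, 8 genes had a positive difference in each of the 3 breeds, and 6 a negative one, CD72, BCL6, MEF2B, MYBL1, GCSAM and RGS13. Apart from CD72 these are germinal centre genes. The counts of genes with 1 sign in each breed are given without a share over all features, so they only describe the list. Of the wider lists of related genes, 0 of 24 measured other B cell genes and 0 of 18 other germinal centre genes were called by limma, with medians of 0.02 and -0.02. Their smallest p-values belonged to CD86, a co-stimulatory ligand, at -0.29 (SE 0.10), and to BCL7A, a chromatin remodelling subunit, at -0.65 (SE 0.27). Among 22 follicle niche and T follicular helper genes, SH2D1A, the adaptor SAP that T cells need to help germinal centres, fell by 0.69 (SE 0.12, limma adjusted p = 0.00437), and 0 were called higher. T cell markers moved with it, 4 of 11 called lower and 0 higher, as did 5 of 8 NK and cytotoxic markers.

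Within Bonsmara, 1 of the 35 genes was called between larva and baseline, with 1.11% of all features called. CD79A, a signalling chain of the B cell antigen receptor, rose. Of the 22 genes of the 4 B cell roles, 19 were positive, with a median of 0.36, while 8 of 10 germinal centre genes were negative, with a median of -0.37. The 3 survival and homing receptors and the 5 transcription factors were all positive.

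CD79A was at -1.08, -1.01 and -0.35 on the Bonsmara baseline arrays and at -0.08, 0.29 and 0.26 with larvae. The stages did not overlap, and the difference was 0.97 (SE 0.23, limma adjusted p = 0.0352). The call depended on single arrays, since it was lost in 5 of 6 fits that each left out 1 array, with differences of 0.84 to 1.20. It was also lost with arrays scaled to the same interquartile range (0.90, adjusted p = 0.0503), and without the 3 adult arrays of unclear description, which left the difference as it was (limma adjusted p = 0.0601). Its probes, taken apart, gave 0.94 and 1.00, and neither was called. In Brahman CD79A was at 0.37, 0.10 and -0.05 at baseline and at 0.37, 0.26 and 0.08 with larvae, and in Holstein-Friesian at -0.19, -0.11 and 0.38 and at -0.06, 0.16 and 0.27. Those stages overlapped. The lowest CD79A value of the series was on a Bonsmara baseline array, and the Bonsmara larva arrays lay within the range of the baseline arrays of the other breeds.

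PAX5, the transcription factor that fixes B cell identity, followed the same layout, at -1.06, -0.80 and -0.50 in Bonsmara at baseline, at -0.06, 0.07 and -0.19 with larvae and at -0.16, -0.15 and -0.58 with adults. The larva difference was 0.72 (SE 0.27, limma adjusted p = 0.196). In Brahman it was at 0.14, -0.43 and 0.27, at 0.53, 0.11 and -0.12 and at 0.05, -0.13 and -1.08 for baseline, larva and adult. In Holstein-Friesian it was at -0.27, -0.35 and 0.21, at -0.47, -0.59 and 0.23 and at -0.84, -0.51 and -0.19. All Bonsmara baseline arrays stood below all other baseline arrays.

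MS4A1, the B cell surface protein CD20, was at -0.69, -0.59 and -0.16 in Bonsmara at baseline, at -0.20, -0.07 and -0.06 with larvae and at 0.13, 0.10 and -0.26 with adults. In Brahman it was at 0.40, -0.44 and 0.57, at 1.19, 0.12 and -0.31 and at 0.10, -0.06 and -1.58. In Holstein-Friesian it was at 0.16, -0.22 and 0.30, at -0.95, -0.40 and 0.53 and at -0.58, -0.18 and -0.42. All 3 stages overlapped in Brahman, and MS4A1 was called in 0 comparisons of the series by limma.

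Of the 35 genes, 23 had Bonsmara larva arrays that did not overlap the baseline arrays, against 26.6% of features, and 15 (42.9%) had an unadjusted p under 0.05, against 15.7% of features. Among them were CD40, the receptor for T cell help, at 0.72 (SE 0.22), TNFRSF13C at 0.71 (SE 0.24), SPIB, a transcription factor of B cells and plasmacytoid cells, at 0.67 (SE 0.28), and CD37, a tetraspanin, at 0.59 (SE 0.23). Negative ones were S1PR2, a receptor that keeps B cells inside the germinal centre, at -0.89 (SE 0.25, limma adjusted p = 0.0878), MYBL1 at -1.32 (SE 0.50) and the helper cytokine IL21 at -0.53 (SE 0.20). These genes share cell types and arrays, so they are not independent of each other, and no test of the list was made. S1PR2 at baseline was at 0.87, 0.86 and 0.81, the narrowest spread of its 9 groups. Markers of other cell types also moved in Bonsmara: 6 of 10 fibroblast and matrix markers were called higher and 4 of 8 NK and cytotoxic markers lower, and SH2D1A fell by 1.14 (SE 0.21).

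In Brahman and in Holstein-Friesian, limma called 0 of the 35 genes between larva and baseline, where 0% and 0.00346% of all features were called. The smallest p-values in Brahman belonged to TNFRSF13B at 0.66 (SE 0.18), FCRL4, an inhibitory Fc receptor-like protein of tissue memory B cells, at -0.36 (SE 0.16), and EBF1, an early B cell transcription factor, at 0.22 (SE 0.15). In Brahman 2 genes had an unadjusted p under 0.05 (5.71%, against 9.51% of features), and the arrays of 1 gene, TNFRSF13B, did not overlap between the stages, against 11.2% of features. In Holstein-Friesian the smallest p-values were those of MME at 0.56 (SE 0.19), TNFRSF13B at 0.53 (SE 0.18) and BCL6 at -0.67 (SE 0.26), and 7 genes (20.0%) had an unadjusted p under 0.05, against 5.95% of features. The arrays of 6 genes did not overlap there, against 8.59% of features. The germinal centre median was -0.63 in Holstein-Friesian, with 8 of 10 negative, and -0.07 in Brahman, with 6 of 10 negative. Without Brahman larva replicate 1 the Brahman median was -0.52, and without Brahman larva replicate 3 it was 0.24. The median over all 35 genes in Holstein-Friesian was -0.15, and it was -0.39 without replicate 3 of the larva group and -0.03 without replicate 1.

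**Figure D4:**
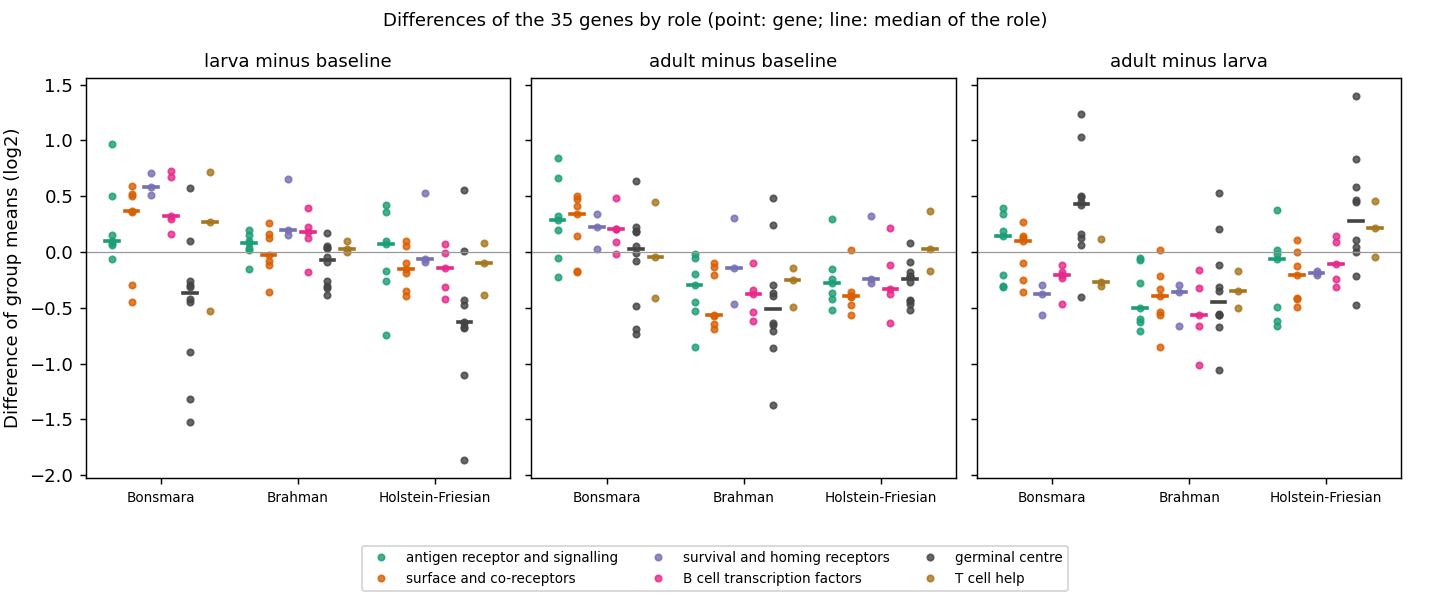
Difference of group means (log2) of each gene, by role and breed, for the 3 stage comparisons. Points are genes and lines are medians of a role. With larvae the germinal centre median lies below those of the other roles in each breed, by a small margin in Brahman. With adults against larvae it lies above them in Bonsmara and Holstein-Friesian. Single genes overlap between roles, and MME is the highest of the 35 in Holstein-Friesian with larvae, at 0.56.

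For adult ticks against baseline, limma called 0 of the 35 genes as the mean over breeds, where 0.0346% of features were called, and 3 had an unadjusted p under 0.05 (8.57%, against 11.5% of features). These were MME at 0.32 (SE 0.11), TNFRSF13B at 0.28 (SE 0.11) and CR2, the complement receptor CD21, at -0.29 (SE 0.13). Of the 35 genes 31 were negative, with a median of -0.16 against -0.02 over all features, but the breeds differed in sign. Without Brahman adult replicate 3 that median was -0.10. Within Bonsmara 23 of 35 were positive, with a median of 0.19, within Brahman 32 of 35 were negative, with a median of -0.38, and within Holstein-Friesian 28 of 35 were negative, with a median of -0.28. The Brahman median was -0.14 without adult replicate 3, and the Bonsmara median 0.09 without baseline replicate 1.

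Within the breeds 0 genes were called between adult and baseline by limma, where 0.0311% of features were called in Bonsmara and 0% in Brahman and Holstein-Friesian. In Bonsmara 6 genes had an unadjusted p under 0.05 (17.1%, against 11.2% of features). The smallest belonged to BANK1, a scaffold of the B cell receptor, which was at -0.15, -0.54 and -0.16 at baseline and at 0.58, 0.69 and 0.40 with adults. The stages were far apart, with a difference of 0.84 (SE 0.19, limma adjusted p = 0.10), and array weights made it 0.87, called (limma adjusted p = 0.0234, with 0.474% of features called in that fit). MME was at 0.63 (SE 0.19) and FCRL4 at 0.50 (SE 0.16). In Brahman 6 genes had an unadjusted p under 0.05 (17.1%, against 11.6% of features), led by FCRL4 at -0.57 (SE 0.16), FCRLA, an intracellular Fc receptor-like protein of germinal centre B cells, at -0.56 (SE 0.22), and IL21 at -0.50 (SE 0.20). In Holstein-Friesian there were 4 (11.4%, against 4.88% of features), with CR2 at -0.57 (SE 0.23), CD79A at -0.52 (SE 0.23) and SPIB at -0.63 (SE 0.28) first. The arrays of 6 genes did not overlap in Holstein-Friesian, against 9.85% of features, those of 5 in Brahman, against 13.2%, and those of 9 in Bonsmara, against 22.5%.

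CD79A on the adult arrays was at 0.06, -0.12 and -0.39 in Bonsmara, at -0.04, -0.12 and -1.01 in Brahman, and at -0.68, -0.32 and -0.47 in Holstein-Friesian. These values lay above 2 of the 3 baseline arrays in Bonsmara and below the baseline arrays in Holstein-Friesian. Among the wider lists, 0 of 24 other B cell genes and 0 of 18 other germinal centre genes were called in the mean over breeds. FCER2, the low-affinity IgE receptor CD23 of follicular B cells, had the smallest p of the former at 0.71 (SE 0.22, limma adjusted p = 0.245), and AURKB, a mitotic kinase, that of the latter at -0.56 (SE 0.18, limma adjusted p = 0.260). Other germinal centre genes, many of them genes of DNA repair and cell division, were negative in 14 of 18.

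For adult ticks against larvae, limma again called 0 of the 35 genes as the mean over breeds, where 0.232% of features were called. The 22 genes of the 4 B cell roles were negative in 20, with a median of -0.27, and the germinal centre genes were positive in 7 of 10, with a median of 0.08. The median of the 22 genes was -0.18 without Brahman adult replicate 3. That of the germinal centre genes turned to -0.03 without Brahman larva replicate 3, was 0.20 without Brahman adult replicate 3, and was 0.03, with 6 of 10 positive, without the 3 adult arrays of unclear description. The smallest p-values were those of CD79A at -0.52 (SE 0.13, limma adjusted p = 0.105), FCRL1, a B cell surface receptor, at -0.47 (SE 0.15), and SPIB at -0.48 (SE 0.16). CD79A was called without Brahman adult replicate 1 (-0.57, limma adjusted p = 0.0435), where 0.719% of features were called. Of the 35 genes, 8 had an unadjusted p under 0.05 (22.9%, against 10.2% of features), 7 of them negative B cell genes and the other BCL6 at 0.32 (SE 0.15). Genes with a negative difference in each breed numbered 13, and CD72 was the only one of the 35 positive in each, again without a share over all features. Macrophage markers moved with this comparison, 5 of 10 called higher, and SH2D1A rose by 0.63 (SE 0.12, limma adjusted p = 0.0450).

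Within Bonsmara limma called 0 of the 35 between adult and larva, where 0.0484% of features were called, and within Brahman and Holstein-Friesian 0, where 0.00346% were called in each. In Bonsmara 1 gene had an unadjusted p under 0.05 (2.86%, against 9.48% of features), MYBL1 at 1.24 (SE 0.50). MYBL1 was at -0.76, -0.86 and -1.27 with larvae and at 0.46, 0.18 and 0.17 with adults, and its baseline arrays, at 0.04, 0.33 and 0.69, overlapped the adult ones. CXCR5 at -0.56 (SE 0.28) and BCL6 at 0.50 (SE 0.26) came next, with opposite signs. Germinal centre genes were positive in 9 of 10 there, with a median of 0.43. The arrays of 14 genes did not overlap, against 21.5% of features.

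In Brahman 9 genes had an unadjusted p under 0.05 between adult and larva (25.7%, against 8.0% of features), with POU2AF1, a B cell co-activator, at -1.01 (SE 0.32), CD79A at -0.63 (SE 0.23) and IL21 at -0.50 (SE 0.20) first. The median over the 35 genes was -0.40, and it was -0.20 without Brahman adult replicate 3 and -0.60 without Brahman larva replicate 3. In Holstein-Friesian 6 genes did (17.1%, against 4.76% of features), led by BANK1 at -0.66 (SE 0.19), CD79A at -0.62 (SE 0.23) and FCRL4 at -0.41 (SE 0.16). RGS13 was at 0.02, 0.36 and 0.56 on the Holstein-Friesian adult arrays, above all its larva arrays, with a difference of 1.40 that was not called. The germinal centre median was also positive in Holstein-Friesian, at 0.12 to 0.39 over the fits that each left out 1 array. The arrays of 7 genes did not overlap in Holstein-Friesian, against 8.61% of features, and those of 7 in Brahman, against 14.1%.

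The design also sets the breeds apart. MME was higher in Brahman than in both other breeds as the mean over stages, and it was the only one of the 35 genes called in these comparisons. Called features made up 0.328% for Brahman against Holstein-Friesian and 0.0553% for Brahman against Bonsmara. At baseline MME and FCRL4 were higher in Brahman than in Bonsmara, with 0.152% of features called. The comparison of Bonsmara with Holstein-Friesian called 0 of the 35 genes.

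MME was at 0.46, 0.38 and 0.34 in Brahman at baseline, at 0.62, 0.30 and 0.37 with larvae and at 0.14, 0.92 and 0.83 with adults. Bonsmara arrays were at -0.50, -1.22 and -0.56, at -0.29, -0.28 and 0.00 and at -0.13, 0.13 and -0.37. Holstein-Friesian arrays were at -0.36, -0.40 and -0.41, at 0.10, 0.17 and 0.22 and at -0.05, -0.54 and -0.35. All 9 Brahman arrays lay above all 9 Bonsmara arrays, and they overlapped the Holstein-Friesian arrays with larvae only through Brahman adult replicate 1. Brahman exceeded Bonsmara by 0.84 (SE 0.11, limma adjusted p = 0.00181) and Holstein-Friesian by 0.66 (SE 0.11, limma adjusted p = 0.0122). Both calls held in each of the 18 fits that left out 1 array, between 0.77 and 0.92 and between 0.62 and 0.75. All these fits took the 9 arrays of a breed as independent, and the labels leave unstated if they came from different animals. If animals were sampled at several stages, the SEs and p-values of both breed differences could be too small. Without the 3 adult arrays of unclear description the call against Bonsmara held (0.84, limma adjusted p = 0.00636) and that against Holstein-Friesian was lost (0.58, limma adjusted p = 0.0591). At baseline the difference from Bonsmara was 1.15 (SE 0.19, limma adjusted p = 0.0193), called in all 6 such fits but lost with arrays scaled to the same interquartile range, with array weights and with only the 6 arrays in the fit. MME rests on 1 probe.

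FCRL4 was at 0.12, 0.63 and 0.59 on Brahman baseline arrays, at -0.45, -0.37 and -0.38 on Bonsmara baseline arrays and at 0.04, 0.08 and 0.06 on Holstein-Friesian ones. The 3 breeds did not overlap at baseline. Brahman exceeded Bonsmara by 0.85 (SE 0.16, limma adjusted p = 0.0326), a call lost in 4 of 6 fits without 1 array and in the same 3 alternatives as that of MME, and also without the 3 adult arrays of unclear description (limma adjusted p = 0.0769). With larvae FCRL4 was at 0.23, -0.18 and 0.21 in Brahman, at -0.05, 0.00 and -0.09 in Bonsmara and at -0.23, 0.33 and 0.26 in Holstein-Friesian. With adults it was at 0.10, -0.15 and -0.31, at -0.10, 0.16 and 0.23 and at -0.23, -0.11 and -0.54. All 3 breeds overlapped with larvae. With adults Brahman overlapped both other breeds, and the Bonsmara arrays lay just above those of Holstein-Friesian. The single probe of FCRL4 was at an adjusted p of 0.0520 when each probe was a feature in the limma fit.

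The other genes at baseline stood lower in Bonsmara as a rule. Of the 35, 30 were positive for Brahman minus Bonsmara, with a median of 0.36, and 30 were negative for Bonsmara minus Holstein-Friesian, with a median of -0.32, against 0.01 and 0.00 over all features. The former median was 0.21 without Brahman baseline replicate 3 and 0.52 without Brahman baseline replicate 2. Both comparisons use the same Bonsmara arrays. For Brahman minus Bonsmara 10 genes had an unadjusted p under 0.05 (28.6%, against 14.0% of features), including CD79A at 0.95 (SE 0.23, limma adjusted p = 0.0906; called without Bonsmara baseline replicate 3, at 1.18, and without Brahman baseline replicate 3, at 1.05), FCRLA at 0.83 (SE 0.22) and PAX5 at 0.78 (SE 0.27), and the arrays of 12 did not overlap, against 15.7% of features. For Bonsmara minus Holstein-Friesian limma called 0, where 0.225% of features were called, and 7 had an unadjusted p under 0.05 (20.0%, against 10.7% of features), led by FCRLA at -0.90 (SE 0.22), CD79A at -0.84 (SE 0.23) and IL21 at 0.62 (SE 0.20). The arrays of 12 did not overlap there, against 16.8% of features. IL21, S1PR2, CR2, CD72 and BTK differed in sign from most of the 35 there. For BTK the sign rested on Bonsmara baseline replicate 2, at 1.55. The other Bonsmara baseline arrays, at -0.57 and -0.31, lay below all Holstein-Friesian baseline arrays. NK and cytotoxic markers moved with this comparison, 4 of 8 called higher in Bonsmara.

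Brahman minus Holstein-Friesian at baseline had a median of 0.04 over the 35 genes, which was -0.05 without Holstein-Friesian baseline replicate 2 and 0.22 without Brahman baseline replicate 2. Limma called 0, where 0.0207% of features were called and 3 of the 35 had an unadjusted p under 0.05 (8.57%, against 10.2% of features). These were MME at 0.78 (SE 0.19, limma adjusted p = 0.135), FCRL4 at 0.39 (SE 0.16) and FCRL1 at 0.55 (SE 0.26). The arrays of 4 genes did not overlap, against 11.2% of features. Bonsmara minus Holstein-Friesian as the mean over stages also gave 0 in limma, where 0.104% of features were called, and 2 at an unadjusted p under 0.05 (5.71%, against 5.59% of features). First came CR2 at 0.38 (SE 0.13), FCRLA at -0.32 (SE 0.13) and IL21 at 0.21 (SE 0.11).

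As the mean over stages, 34 of the 35 genes were positive for Brahman minus Bonsmara, with a median of 0.18, IL21 being the exception at -0.27 (SE 0.11). The median was 0.11 without Brahman larva replicate 1. At an unadjusted p under 0.05, limma gave 7 of the 35 genes in this comparison (20%, against 8.84% of features). Brahman minus Holstein-Friesian gave 4 genes at that threshold (11.4%, against 12.3% of features). Among them CR2 was at 0.52 (SE 0.13, limma adjusted p = 0.0738) and S1PR2 at 0.55 (SE 0.15, limma adjusted p = 0.0901). CR2 ranged from -0.23 to 0.88 with a median of 0.29 over the 9 Brahman arrays, and from -0.72 to 0.39 with a median of -0.24 over the 9 Holstein-Friesian arrays. S1PR2 ranged from 0.29 to 1.59 with a median of 0.68, and from -0.38 to 0.92 with a median of 0.02. The breeds overlapped in both genes. Without Holstein-Friesian larva replicate 3, where CR2 stood at 0.39 and S1PR2 at 0.92, 6 of the 35 genes were called higher in Brahman, where 4.34% of features were called: CD72, CR2, FCRL1, TNFRSF13C, S1PR2 and MME.

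**Figure D5:**
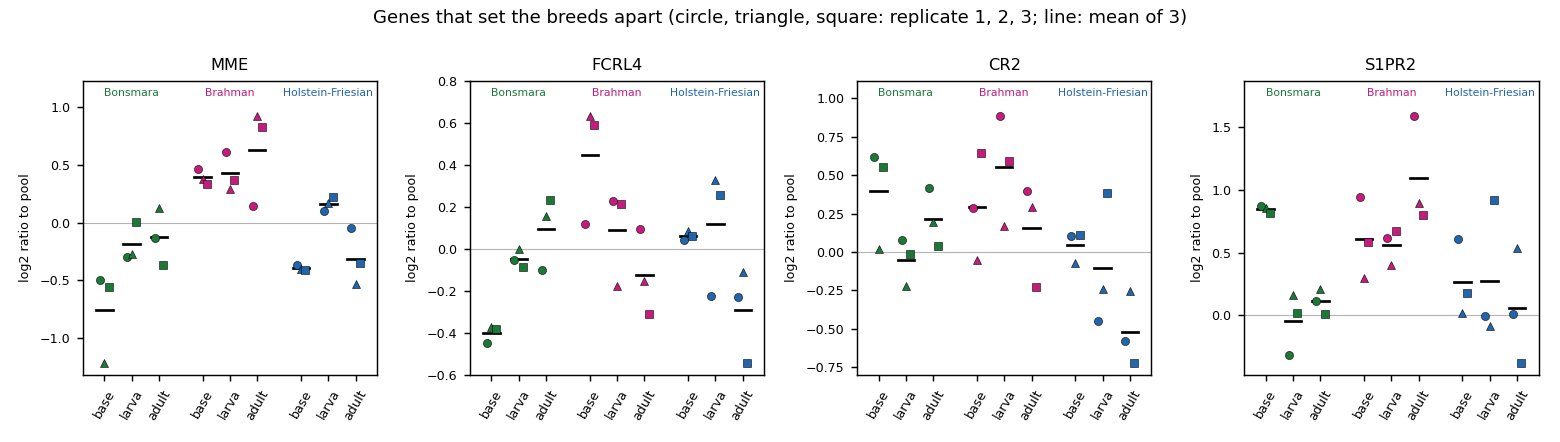
Log2 ratio to the pool of MME, FCRL4, CR2 and S1PR2 on each array, by breed and stage. Points are arrays with a symbol per replicate number, and lines are means of 3. MME lies between 0.14 and 0.92 on the Brahman arrays, above all Bonsmara arrays, and FCRL4 separates the breeds at baseline.

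Whether the breeds differed in their response to feeding was tested by an F test of the breed by stage interaction, which called 0 of the 35 genes and 0% of features in limma. At an unadjusted p under 0.05 there were 6.99% of features and 6 of the genes. FCRL4 and BANK1 came first (limma adjusted p = 0.563 for both) and CD79A (limma adjusted p = 0.637). The size behind them was largest for adults. CD79A differed by 1.18 (SE 0.32) and BANK1 by 1.08 (SE 0.26) between the Bonsmara and the Holstein-Friesian response. Between the Brahman and the Bonsmara response CD79A differed by -1.19 and FCRL4 by -1.07 (SE 0.23). Limma called 0 of the 35 genes in each of the 6 comparisons of a larva or adult response between a pair of breeds, where 0% to 0.00691% of features were called. Signs of the stage differences that are unlike between breeds are therefore given as descriptions of the group means.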

How the data were processed

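RNA of 27 lymph node samples was measured on 2-colour arrays against a common pool. The deposited table holds log2 ratios made by the authors, and 0 values are missing. The submitters' processing notes name limma. How background was corrected and ratios were normalized was not found in the labels or the file. Array medians lay between -0.0095 and 0.0059 and SDs between 0.220 and 0.547, and correlations of 2 arrays between -0.143 and 0.457 (median 0.128).

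Probes were named through the platform's table and the RefSeq gene table, used for names only (30788 of 45220 with 1 symbol, 14432 with none). Probes of 1 gene were averaged, giving 14495 genes and, with unnamed probes, 28927 features. limma 3.58.1 in R 4.3.3 fitted 1 mean per group to 27 arrays (18 residual and 3.86 prior degrees of freedom), with two-sided tests. The code was first tested on simulated data with known changes. P-values over arrays measure the spread between these arrays.

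The 35 genes, their roles and the lists were chosen with earlier results of these data known, and the 22 genes of the 4 B cell roles were pooled after the values were seen. Array values are printed for genes called in any comparison and for CD79A, MS4A1, PAX5, BCL6 and CXCR5. Where 0 were called, the 3 smallest p-values are given. RGS13, MYBL1, BANK1 and S1PR2 array values were added after they were seen. Alternatives were scaling to one interquartile range, named genes only, array weights, a replicate block, each probe as a feature, only the arrays compared, and arrays left out, the 3 adult arrays of unclear description as an alternative chosen after the data were seen. Deviations of same-numbered arrays of a breed correlated weakly (median 0.04), and the labels leave pairing unstated, so the numbers were not used as pairs. Marker lists of red cell, skin, muscle and fat (0 called in each with larvae as the mean over breeds) were also counted.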

Additional observations from a re-analysis of the deposited data

How the results depend on the processing

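TNFRSF13B with larvae as the mean over breeds, and MME in Brahman against Bonsmara as the mean over stages, kept their sign and call in all alternatives that were run. MME against Holstein-Friesian kept its call in all but 1, added after the data were seen, which left out the 3 adult arrays whose description also names larvae. That alternative moved 3 counts, to 0 with larvae in Bonsmara (0.733% of features called), 1 for Brahman against Bonsmara at baseline (0.0346%) and 0 for Brahman against Holstein-Friesian over stages (0.0173%). The count of called genes with larvae over breeds was 1, and 1 to 4 when 1 array was left out. It was 4 without Brahman larva replicate 1 (1.55% of features called). Without Bonsmara baseline replicate 2 it was 2 (0.816%), where BTK joined at 0.42. In Bonsmara it was 1, and 0 with scaled arrays and 0 without the 2 arrays set apart in earlier results. It was 0 with only the arrays compared, 0 with each probe a feature and 0 to 1 when 1 array was left out. Array weights gave 5, where 5.74% of features were called (CD79A, TNFRSF13C, PAX5 and CD40 higher, S1PR2 lower). Without Bonsmara baseline replicate 2 the 1 gene called was BTK, at 0.75. For Brahman against Bonsmara at baseline the count was 2, and 0 with scaled arrays, 0 with array weights, 0 with only the arrays compared, 1 with each probe a feature and 1 to 3 when 1 array was left out (3 without Brahman baseline replicate 3, where CD79A joined and 1.55% of features were called). For Brahman against Holstein-Friesian over stages it was 1, and 3 with array weights, 5 without the 2 arrays, 2 with each probe a feature and 1 to 6 when 1 array was left out (6 without Holstein-Friesian larva replicate 3, 3 without Holstein-Friesian adult replicate 2). Counts of 0 became 1 for adult against baseline in Bonsmara with array weights (BANK1, with 0.474% of features called). They became 0 to 1 for adult against larva over breeds (CD79A, without Brahman adult replicate 1, 0.719%). For the 6 comparisons of responses they became 0 to 1 (FCRL4 at -1.23, without Brahman baseline replicate 1). The causes were not tested. With the replicate block the count stayed at 1 with larvae over breeds, and it changed in none of the 20 results. The block left the breed differences as they were, and it cannot account for animals sampled at several stages in those comparisons. Of 27 pairings of same-numbered arrays, 7 had correlated deviations above 0.1 (-0.30 to 0.18). All same-numbered pairs in Brahman were positive (0.0034 to 0.18), and the lowest value was in Holstein-Friesian, between baseline and larva. These values do not settle if the numbers pair the arrays. Signal over background is unknown, and 3 arrays a group limit what could be called.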
